A study of Mus musculus with 6 samples.

Results

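The Slc25 genes encode the mitochondrial carriers, and 46 of them were followed here through the last steps of male germ cell development in the mouse. They were taken as every gene whose symbol is Slc25a followed by digits and that has an array probe cluster assigned to it alone, which gave 46 of the 19938 genes with such a cluster. A gene with several clusters was represented by the brightest. RNA was measured on Affymetrix MoGene 1.0 ST arrays, which carry 1 colour, in germ cells of C57BL/6 mice. The groups were Rnf8 knockout (KO) round spermatids with 1 array, wild-type (WT) round spermatids with 1 array, KO pachytene spermatocytes with 2 arrays and WT pachytene spermatocytes with 2 arrays. Rnf8 encodes a ubiquitin ligase of the DNA damage response, pachytene spermatocytes are in meiotic prophase, and round spermatids are the haploid cells that follow meiosis. Cells from 3 to 4 males were enriched by sedimentation through albumin, to a stated purity above 95%, so each array averages over animals. The labels give neither the construction of the knockout allele nor the age of the mice.

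Mitochondrial carriers are membrane proteins built from a repeated module, and most of them sit in the inner mitochondrial membrane, where each passes particular substrates between the matrix and the cytosol. They bring ADP, phosphate and oxidisable acids to the matrix and return ATP, citrate and other products. Some move cofactors, nucleotides or iron, and a few work in peroxisomes or in the outer mitochondrial membrane. In the testis the family is best known for Slc25a31, the germ cell ADP/ATP carrier, which male mice need for meiosis and fertility. The other ADP/ATP carriers are Slc25a4, the form of heart and muscle, and Slc25a5, a widely expressed form encoded on the X chromosome, which is silenced in pachytene spermatocytes.

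The probe cluster of Rnf8, which also lists the readthrough gene Gm28043, had log2 intensities of 7.50 in KO round spermatids against 7.78 in WT round spermatids. In pachytene spermatocytes it had 7.86 and 8.05 in KO against 8.51 and 8.86 in WT, so the KO values were lower in both cell types. The sources used here do not say where these probes lie relative to the deleted part. Pachytene markers were lower in round spermatids for 9 of 9 genes (summed intensity 11388 to 11901, against 29836 to 35238 in pachytene arrays), and spermatid markers were higher for 8 of 10 (55534 to 58060 against 33130 to 41552). The smallest differences among spermatid markers were 0.22 for Prm1 and 0.23 for Prm2. Both were bright on the pachytene arrays too, with log2 values of 12.85 to 13.18 and 13.25 to 13.44. What this means for the stated purity was not tested. Markers of other testicular cells differed between the cell types in both directions. Leydig cell markers were lower in round spermatids for 6 of 6 genes (1044 to 1277 against 4689 to 6905), and Sertoli cell markers for 6 of 9 (3590 to 4199 against 6434 to 7864). Of the peritubular and vessel markers 2 of 6 were higher in round spermatids (2963 to 3783 against 1601 to 1871). Higher too were 1 of 7 spermatogonial markers (2399 to 2826 against 2269 to 2631, sums that overlap). The same held for 1 of 4 markers of macrophages and blood (536 to 597 against 436 to 480). Over all genes tested, 17.8% were higher and 17.1% lower in round spermatids. The higher peritubular and vessel sum came mostly from Dcn, whose log2 means differed by 2.86. Vwf differed by 0.40 and Acta2 by 0.10, while Myh11 (-0.14), Col1a1 (-0.08) and Pecam1 (-0.22) went the other way. None of the markers of other testicular cells lay below the array's lower quartile on all 6 arrays. Their part in the differences between cell types was not tested.

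The RefSeq tables of the GRCm38.p6 assembly held a promoter for 36 of the 46 genes, and the 250 bases before the start of transcription are shown for the 3 ADP/ATP carrier genes, on which the comparison of the germ cell form with the others turns. Slc25a31 lies on chromosome 3 (chr3:40708621-40708870, plus strand), Slc25a4 on chromosome 8 (chr8:46211063-46211312, minus strand) and Slc25a5 on X (chrX:36795347-36795596, plus strand). Capitals mark the letters TCCCGC, the core of the E2F motif, searched on both strands.
Slc25a31: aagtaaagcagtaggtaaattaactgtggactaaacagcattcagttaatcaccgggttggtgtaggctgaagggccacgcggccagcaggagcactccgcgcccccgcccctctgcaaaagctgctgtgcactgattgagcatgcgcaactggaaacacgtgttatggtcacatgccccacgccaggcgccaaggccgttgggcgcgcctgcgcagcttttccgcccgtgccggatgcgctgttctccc
Slc25a4: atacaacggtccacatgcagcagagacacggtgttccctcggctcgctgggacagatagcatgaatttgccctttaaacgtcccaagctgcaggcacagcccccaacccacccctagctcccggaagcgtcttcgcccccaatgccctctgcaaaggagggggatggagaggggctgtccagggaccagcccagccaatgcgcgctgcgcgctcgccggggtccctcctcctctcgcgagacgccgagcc
Slc25a5: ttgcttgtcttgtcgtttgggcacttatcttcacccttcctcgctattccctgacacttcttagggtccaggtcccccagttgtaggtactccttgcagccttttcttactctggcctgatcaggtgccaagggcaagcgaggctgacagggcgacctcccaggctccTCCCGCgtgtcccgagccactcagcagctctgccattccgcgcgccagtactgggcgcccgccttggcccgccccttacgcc
The capitals occur 1 time before Slc25a5 and nowhere in the other windows. Of all 32851 promoters, 16.9% hold these letters, as do 8 of the 46 promoters listed for the 36 carrier genes (those of Slc25a1, Slc25a5, Slc25a11, Slc25a15, Slc25a28, Slc25a33 and Slc25a38). The windows contain 18 CpG dinucleotides for Slc25a31, 18 for Slc25a4 and 14 for Slc25a5, where the median of all promoters is 6 and that of the 46 Slc25 promoters 11.5.

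About as many carrier genes were higher as lower in round spermatids. Of the 46 genes, 24 differed between round spermatids and pachytene spermatocytes at an adjusted p under 0.05 (52.2%, against 34.9% of the 17925 genes tested), 12 of them higher (26.1%, against 17.8%) and 12 lower (26.1%, against 17.1%). The test was limma's moderated test of log2 intensity with genotype held constant, with Benjamini-Hochberg adjustment over all 17925 genes, and all 46 carrier genes reached the intensity required for it, a log2 value of 6 on at least 1 array. The median difference was -0.02 on the log2 scale over the carrier genes and -0.06 over all genes, while the median size of the difference, sign aside, was 0.40 and 0.23. The round spermatid arrays did not overlap the pachytene arrays for 30 of 46 carrier genes (65.2%, against 50.5% of all genes). All 24 genes past the threshold were among them. Arrays that do not overlap fix the same sign in KO and in WT, so that sign is no separate check. Of the 24, 8 differed at least 2-fold, namely 6 higher (13.0% of the 46, against 7.19% of all genes) and 2 lower (4.35%, against 4.18%). In these bulk samples, fewer cells of a type and less RNA per cell cannot be told apart, and no label says that the arrays come from separate animals, so the p-values reflect only how far these samples vary, and that variation may be technical.

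**Figure D1:**
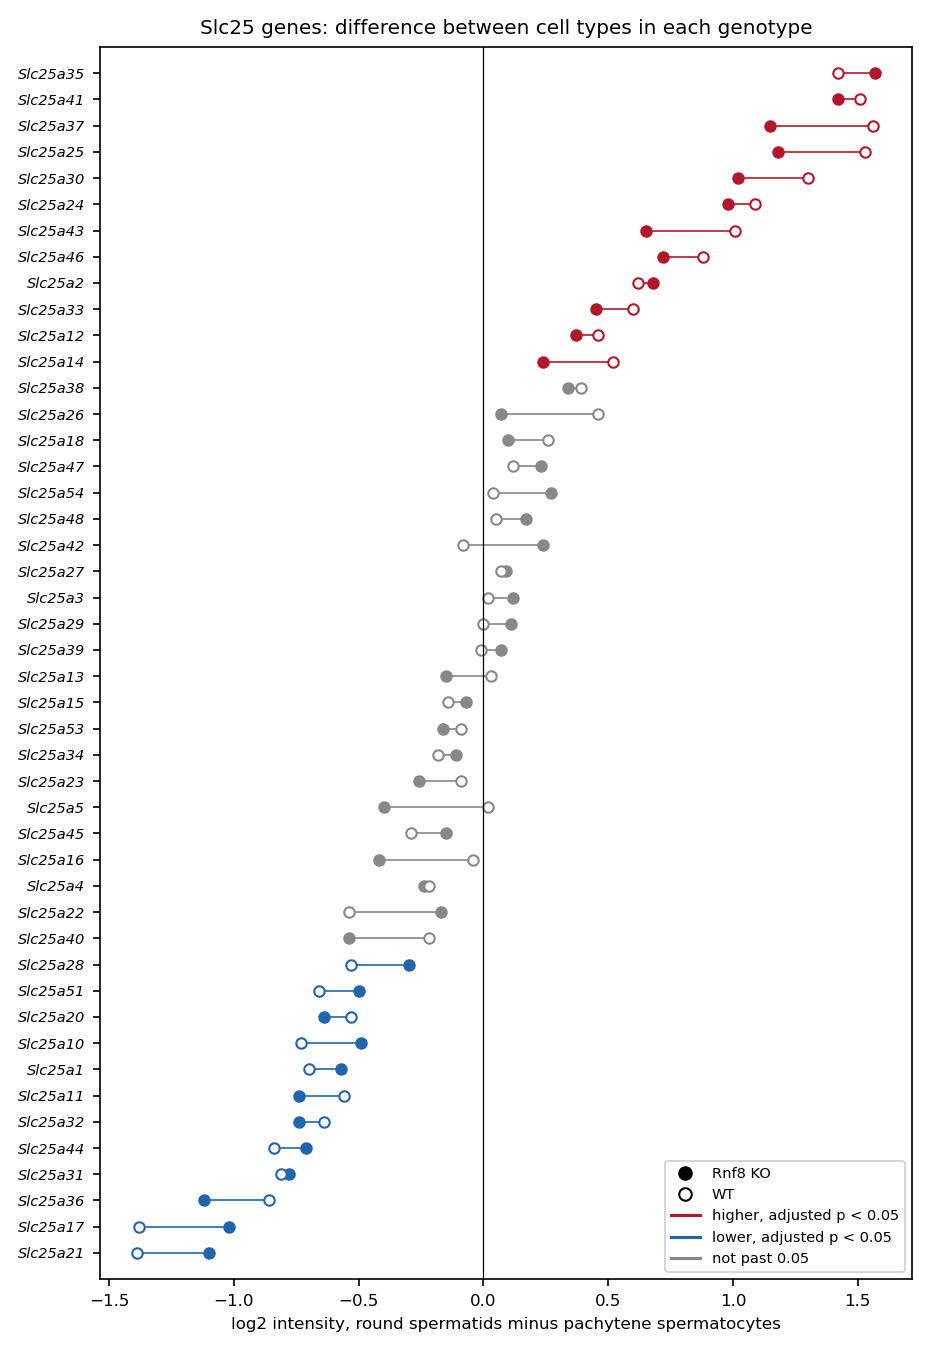
Difference between round spermatids and pachytene spermatocytes, on the log2 scale, for the 46 Slc25 genes, with filled points for KO and open points for WT. Each point is 1 round spermatid array minus the mean of 2 pachytene arrays, and colour gives the test over both genotypes: the red genes, from Slc25a35 down to Slc25a14, and the blue genes, from Slc25a28 down to Slc25a21, have both points on the same side of 0. For these genes that follows from arrays of the 2 cell types that do not overlap.

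The round spermatid side rests on 2 arrays, both labelled replicate 2, while the pachytene arrays of each genotype are labelled 1 and 2. Cell type and replicate number are therefore partly confounded. The count of carrier genes past the threshold fell when either round spermatid array was left out. Without the KO round spermatid array 15 carrier genes passed (32.6%, against 20.0% of all genes), and without the WT round spermatid array 11 did (23.9%, against 15.5%), so the count fell over all genes too. With 1 round spermatid array left, such a fit takes its spread from the pachytene arrays alone and assumes that the lone array varies like them. The number of carrier genes that passed every fit, given next, was not set beside such a number over all genes. It is a description of these genes only. In the 6 fits that each left out 1 array, 9 genes passed every time: Slc25a24, Slc25a25, Slc25a30, Slc25a35, Slc25a37 and Slc25a41 among the higher, and Slc25a17, Slc25a36 and Slc25a44 among the lower.

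The ADP/ATP carriers exchange cytosolic ADP for matrix ATP and so connect oxidative phosphorylation to the rest of the cell. Slc25a31 was lower in round spermatids, while the differences of Slc25a4 and Slc25a5 did not pass the test. Slc25a31 had log2 intensities of 10.63 in the KO and 10.57 in the WT round spermatid array, against 11.55 and 11.28 in KO and 11.23 and 11.53 in WT pachytene spermatocytes. All pachytene arrays lay above both round spermatid arrays, a difference of -0.80 (SE 0.13, adjusted p = 0.00235), or 1.74-fold lower in round spermatids. Without the WT round spermatid array its adjusted p was 0.0519, with a difference of -0.78.

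Slc25a4 had 7.98 in the KO and 7.87 in the WT round spermatid array, against 8.25 and 8.19 in KO and 8.12 and 8.06 in WT pachytene spermatocytes. Its arrays did not overlap either, but the difference was -0.23 (SE 0.10, adjusted p = 0.125). Slc25a5 had 8.62 and 8.91 in KO and WT round spermatids, against 9.06 and 8.99 in KO and 9.03 and 8.75 in WT pachytene spermatocytes, where 1 WT pachytene array lay below the WT round spermatid array. The difference was -0.19 (SE 0.14, adjusted p = 0.359), and without the KO round spermatid array it was 0.02. Slc25a5 has 3 probe clusters, which differed from each other by at most 0.14 on any array. The family is known for near-identical copies of this gene elsewhere in the genome, so which locus each cluster reads is uncertain.

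Probe levels of different genes cannot be set against each other, but the change of their difference within an array can. Slc25a31 minus Slc25a4 was 2.65 in the KO and 2.70 in the WT round spermatid array, against 3.29 and 3.09 in KO and 3.11 and 3.47 in WT pachytene spermatocytes, a change of -0.57. Slc25a31 minus Slc25a5 was 2.01 in the KO and 1.66 in the WT round spermatid array, against 2.48 and 2.29 in KO and 2.20 and 2.78 in WT pachytene spermatocytes, a change of -0.60. For both pairs the lowest pachytene array stayed above both round spermatid arrays. The exact two-sided permutation test over arrays gave p = 0.133 for each, which is the smallest p that 2 against 4 arrays allow and cannot pass 0.05 (adjusted over 6 pairs of genes, 4 of them adjacent genes, 0.16).

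**Figure D2:**
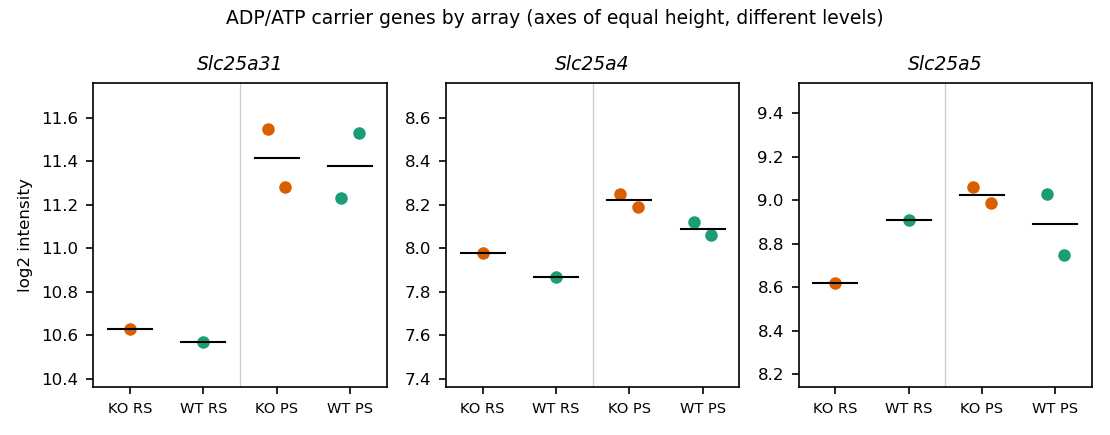
Log2 intensity of the 3 ADP/ATP carrier genes by array, with round spermatids (RS) to the left and pachytene spermatocytes (PS) to the right of the grey line, KO in orange and WT in green. Points are arrays and black lines are group means, and panels share the height of the axis but not its level: Slc25a31 shows the widest gap between cell types, and the Slc25a5 values overlap.

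The ATP-Mg/phosphate carriers exchange magnesium-bound ATP for phosphate and set the adenine nucleotide content of the matrix, most of them under control of cytosolic calcium. Of the 5 genes of this branch, 3 were higher in round spermatids (Slc25a24, Slc25a25 and Slc25a41), none was lower, and Slc25a23 and Slc25a54 did not pass the test. Over all genes 17.8% were higher and 17.1% lower. The groups by substrate, here and below, were drawn up with earlier results of these data known, so their counts are a description. Slc25a41, a short form without the calcium-binding domain of its relatives, had 9.75 and 9.93 in KO and WT round spermatids, against 8.51 and 8.16 in KO and 8.52 and 8.34 in WT pachytene spermatocytes. That was 2.75-fold higher (log2 1.46, SE 0.13, adjusted p = 0.000226). Slc25a25, a calcium-regulated form, had 9.25 and 9.41 in KO and WT round spermatids, against 8.12 and 8.04 in KO and 8.04 and 7.73 in WT pachytene spermatocytes. It was 2.55-fold higher (log2 1.35, SE 0.14, adjusted p = 0.000307). Slc25a24, another calcium-regulated form, had 10.03 and 10.34 in KO and WT round spermatids, against 9.35 and 8.73 in KO and 9.20 and 9.30 in WT pachytene spermatocytes. The KO pachytene pair was wide apart, and the difference was 1.04 (SE 0.17, adjusted p = 0.00229). For none of these 3 genes did a pachytene array reach the round spermatid arrays. Slc25a23 differed by -0.18 (adjusted p = 0.261) and Slc25a54 by 0.15 (adjusted p = 0.477).

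Several carrier genes lie next to each other on a chromosome. In the RefSeq annotation, Slc25a41 and Slc25a23 are adjacent protein-coding genes on chromosome 17, Slc25a24 and Slc25a54 on chromosome 3, Slc25a43 and Slc25a5 on X, and Slc25a47 and Slc25a29 on chromosome 12. These pairs were taken up after the values had been seen, so their values are a description. The gene with the larger difference between cell types, sign aside, was put first in each pair. For every pair that difference was positive, so the direction of the changes below follows from the order. The within-array difference of the first gene to the second was higher in round spermatids by 1.64 for Slc25a41 and Slc25a23, by 0.88 for Slc25a24 and Slc25a54, and by 1.02 for Slc25a43 and Slc25a5. In each of these 3 pairs the round spermatid arrays lay above all pachytene arrays. For the pair with Slc25a5, the locus that its cluster reads is uncertain, as said above. Slc25a47 and Slc25a29 differed by 0.12 more in round spermatids and their arrays overlapped.

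**Figure D3:**
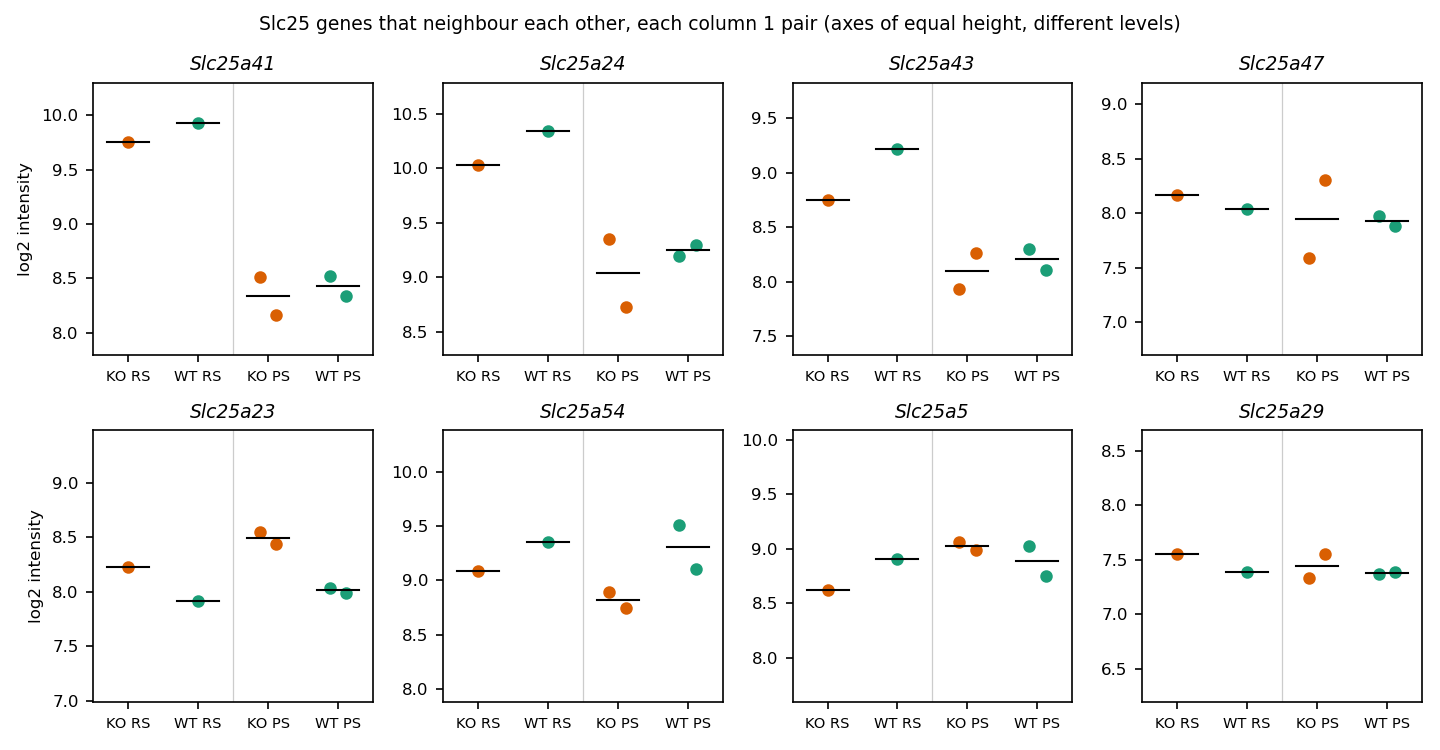
Log2 intensity by array for 4 pairs of adjacent Slc25 genes, each column 1 pair, with round spermatids (RS) left of the grey line, pachytene spermatocytes (PS) right of it, KO in orange and WT in green. Points are arrays and black lines are group means: Slc25a41, Slc25a24 and Slc25a43 in the upper row have both round spermatid arrays above all pachytene arrays, and the genes below them overlap.

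The carriers of carboxylic acids link the citric acid cycle to the cytosol. All 4 measured genes of this group were lower in round spermatids, with a median of -0.64, where 17.1% of all genes were lower. Slc25a21, which carries oxodicarboxylates of lysine breakdown, had 6.89 and 6.75 in KO and WT round spermatids, against 8.45 and 7.54 in KO and 8.09 and 8.20 in WT pachytene spermatocytes. It was 2.37-fold lower (log2 -1.25, SE 0.23, adjusted p = 0.00391), the largest fall of the family, although its KO pachytene arrays differed by 0.91. Slc25a11, the oxoglutarate carrier of the malate-aspartate shuttle, had 10.32 and 10.14 in KO and WT round spermatids, against 11.07 and 11.05 in KO and 10.80 and 10.61 in WT pachytene spermatocytes (difference -0.65, SE 0.11, adjusted p = 0.00283). Slc25a1, the citrate carrier, which exports the precursor of fatty acids and sterols, had 10.21 and 9.91 in KO and WT round spermatids, against 10.79 and 10.76 in KO and 10.64 and 10.56 in WT pachytene spermatocytes (difference -0.63, SE 0.10, adjusted p = 0.00218). Slc25a10, the dicarboxylate carrier, differed by -0.61 (SE 0.15, adjusted p = 0.0123). In all 4, each pachytene array lay above both round spermatid arrays. The calls rest on both round spermatid arrays: without the KO array the adjusted p was 0.0787 for Slc25a11 and 0.0623 for Slc25a10, and without the WT array it was 0.0744 for Slc25a21, 0.0758 for Slc25a1 and 0.214 for Slc25a10.

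Iron enters mitochondria through the mitoferrins, for the making of haem and iron-sulfur clusters, and their 2 genes moved in opposite directions. Slc25a37, mitoferrin 1, best known from red cell precursors, had 10.17 and 10.42 in KO and WT round spermatids, against 9.23 and 8.81 in KO and 8.85 and 8.88 in WT pachytene spermatocytes. It was 2.55-fold higher, with no overlap (log2 1.35, SE 0.15, adjusted p = 0.000454). Slc25a28, mitoferrin 2, the form of most other tissues, had 10.87 and 10.61 in KO and WT round spermatids, against 11.05 and 11.29 in KO and 11.19 and 11.10 in WT pachytene spermatocytes. It was lower by a smaller amount, with a difference of -0.41 (SE 0.12, adjusted p = 0.031). That call did not hold without the KO round spermatid array (adjusted p = 0.107), the WT round spermatid array (0.427), WT pachytene array 1 (0.102) or WT pachytene array 2 (0.0879). Slc25a38, which imports glycine for haem synthesis, had 11.17 and 11.02 in KO and WT round spermatids, against 10.85 and 10.81 in KO and 10.46 and 10.80 in WT pachytene spermatocytes, and its difference of 0.37 missed the threshold (adjusted p = 0.0524).

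A like split appeared between the pyrimidine nucleotide carriers, which supply the mitochondrial genome with building blocks. Slc25a33 had 11.06 and 11.01 in KO and WT round spermatids, against 10.65 and 10.55 in KO and 10.44 and 10.38 in WT pachytene spermatocytes, and was higher by 0.53 (SE 0.11, adjusted p = 0.00574; 0.151 without the WT round spermatid array and 0.0556 without the KO one). Slc25a36 had 9.40 and 9.62 in KO and WT round spermatids, against 10.62 and 10.41 in KO and 10.45 and 10.51 in WT pachytene spermatocytes, and was 1.98-fold lower (log2 -0.99, SE 0.12, adjusted p = 0.000574). A further cluster of Slc25a36, dimmer and not used in the test, had 7.69 and 8.04 in KO and WT round spermatids, against 8.96 and 8.35 in KO and 9.02 and 8.55 in WT pachytene spermatocytes, so it was lower too.

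**Figure D4:**
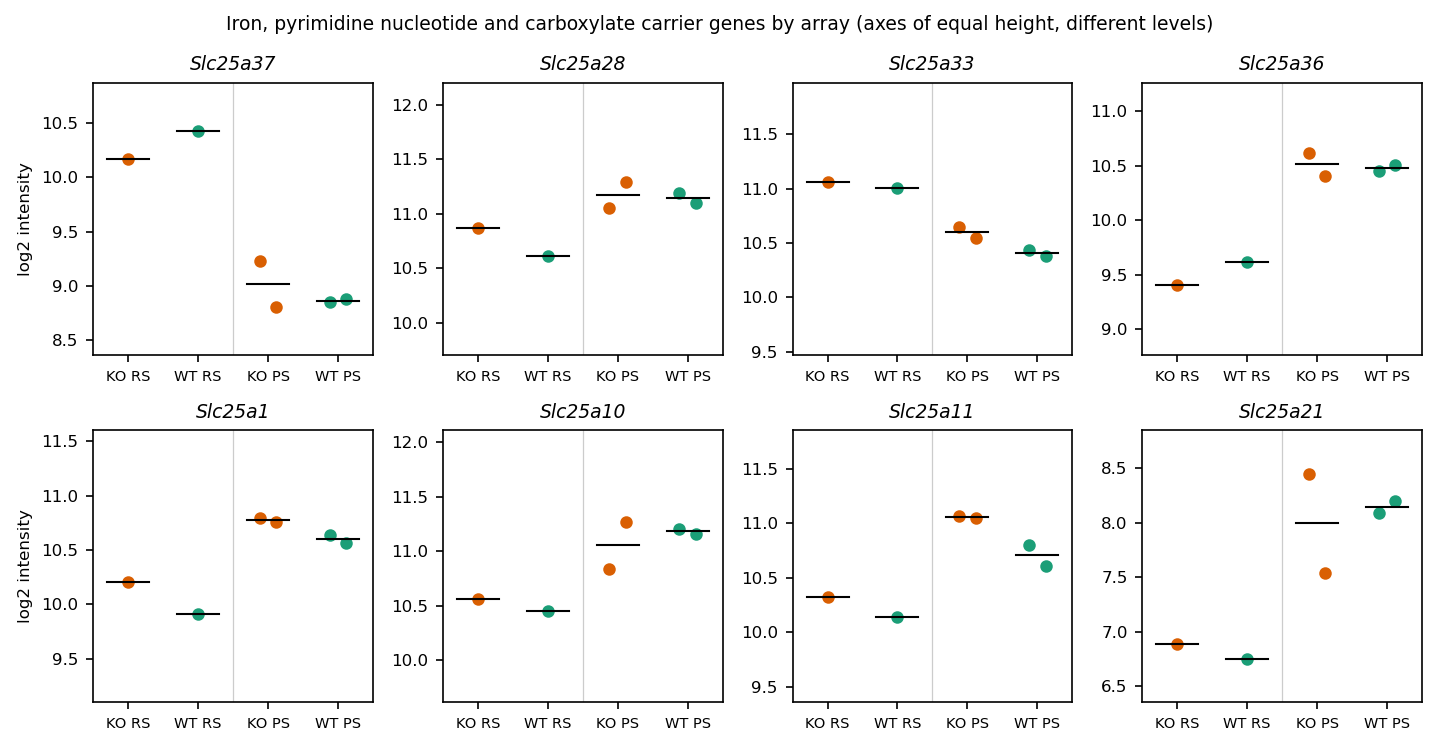
Log2 intensity by array for the mitoferrins (Slc25a37 and Slc25a28), the pyrimidine nucleotide carriers (Slc25a33 and Slc25a36) and the 4 carboxylate carriers, with round spermatids (RS) left of the grey line, pachytene spermatocytes (PS) right of it, KO in orange and WT in green. Points are arrays and black lines are group means: Slc25a37 and Slc25a33 are higher in round spermatids, and the other 6 genes lower.

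Slc25a36 and Slc25a25 are also the only carrier genes among the 36 with a RefSeq promoter that hold the full cAMP response element, TGACGTCA, in the 250 bases before the start, and they moved in opposite directions between the cell types. This element binds CREM, a known activator of spermatid genes, and its letters are found in 1.55% of all promoters and 2 of the 46 carrier promoters, while the shorter TGACGT, which the full element contains, is found in 6.47% of all promoters and 4 of the 46 (Slc25a3, Slc25a25, Slc25a33 and Slc25a36), both searched on both strands. The Slc25a25 window (chr2:32424067-32424316, minus strand, 1 of 3 promoters of the gene) and the Slc25a36 window (chr9:97111042-97111291, minus strand) of GRCm38.p6 are shown with the element in capitals, which begins 150 bases before the start in Slc25a25 and 161 in Slc25a36.
Slc25a25: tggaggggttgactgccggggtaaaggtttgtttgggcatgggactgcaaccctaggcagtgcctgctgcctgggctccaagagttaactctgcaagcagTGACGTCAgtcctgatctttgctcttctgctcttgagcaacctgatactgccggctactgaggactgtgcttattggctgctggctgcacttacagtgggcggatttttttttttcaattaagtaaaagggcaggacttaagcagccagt
Slc25a36: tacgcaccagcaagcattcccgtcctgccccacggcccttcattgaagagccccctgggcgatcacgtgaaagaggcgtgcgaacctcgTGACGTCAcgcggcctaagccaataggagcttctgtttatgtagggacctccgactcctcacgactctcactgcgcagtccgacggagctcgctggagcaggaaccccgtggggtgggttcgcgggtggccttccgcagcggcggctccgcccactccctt
The Slc25a25 window has 4 CpG dinucleotides and the Slc25a36 window 24. A match of letters is a description of these windows.

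Carriers of cofactors, nucleotides, methyl donors and glutathione were the largest group, with 1 of 10 higher (Slc25a33), 4 lower and 5 not past the threshold. The shares over all genes were 17.8% higher and 17.1% lower. Slc25a17, a peroxisomal carrier of coenzyme A and other cofactors, had 8.32 and 8.30 in KO and WT round spermatids, against 9.61 and 9.08 in KO and 9.59 and 9.78 in WT pachytene spermatocytes. It was 2.30-fold lower, with no overlap between cell types (log2 -1.20, SE 0.17, adjusted p = 0.00118). Slc25a32, the carrier of folate and FAD, had 7.67 and 7.63 in KO and WT round spermatids, against 8.55 and 8.27 in KO and 8.23 and 8.30 in WT pachytene spermatocytes (difference -0.69, SE 0.12, adjusted p = 0.00289, and 0.0649 without the KO round spermatid array). Slc25a51, the NAD carrier, differed by -0.58 (SE 0.10, adjusted p = 0.00344, and 0.109 without the WT round spermatid array). The members that did not pass were Slc25a16, Slc25a26, Slc25a39, Slc25a40 and Slc25a42, with differences between -0.38 for Slc25a40 and 0.27 for Slc25a26. Slc25a39, a glutathione carrier, had 12.85 and 12.82 in KO and WT round spermatids, against 12.77 and 12.79 in KO and 12.82 and 12.85 in WT pachytene spermatocytes.

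Amino acid carriers moved in both directions. Of the carriers of aspartate, glutamate and glycine, Slc25a12, an aspartate-glutamate exchanger of the malate-aspartate shuttle, was higher by 0.42 (SE 0.10, adjusted p = 0.0146), and Slc25a13, Slc25a18, Slc25a22 and Slc25a38 did not pass. The Slc25a12 call was lost without the KO round spermatid array (adjusted p = 0.123), the WT round spermatid array (0.241) or WT pachytene array 1 (0.0599). Slc25a44, the carrier of branched-chain amino acids, had 9.35 and 9.36 in KO and WT round spermatids, against 9.96 and 10.16 in KO and 10.17 and 10.23 in WT pachytene spermatocytes, and was 1.71-fold lower (log2 -0.78, SE 0.11, adjusted p = 0.00122). Slc25a2, an ornithine carrier, was higher by 0.65 (SE 0.14, adjusted p = 0.00725; 0.102 with the KO round spermatid array left out and 0.0875 with the WT one left out). The other ornithine carrier, Slc25a15, and the basic amino acid carrier Slc25a29 differed by -0.11 and 0.06 without passing. Slc25a20, which brings acylcarnitines in for fatty acid oxidation, was lower, with a difference of -0.58 (SE 0.11, adjusted p = 0.00458; 0.0987 with the KO round spermatid array left out and 0.0642 with the WT one left out). The phosphate carrier Slc25a3, which feeds ATP synthesis, had 12.31 and 12.27 in KO and WT round spermatids, against 12.17 to 12.25 over the 4 pachytene arrays, and its difference of 0.07 did not pass (adjusted p = 0.651).

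The largest rise of the family was that of Slc25a35, a carrier whose substrate is not well established. It had 10.53 and 10.74 in KO and WT round spermatids, against 9.21 and 8.71 in KO and 9.37 and 9.27 in WT pachytene spermatocytes, and was 2.82-fold higher (log2 1.49, SE 0.15, adjusted p = 0.000309). Among relatives of the uncoupling proteins, Slc25a30 had 9.78 and 10.03 in KO and WT round spermatids, against 8.85 and 8.67 in KO and 8.60 and 8.86 in WT pachytene spermatocytes, and was 2.23-fold higher (log2 1.16, SE 0.13, adjusted p = 0.000438). In neither gene did the cell types overlap. Slc25a14, another of these relatives, was higher by 0.38 (SE 0.12, adjusted p = 0.0419), a call lost without either round spermatid array (0.104 without KO and 0.538 without WT) or either WT pachytene array (0.131 without array 1 and 0.104 without array 2), and Slc25a27 did not pass (0.08, adjusted p = 0.618). Slc25a46, an outer membrane member involved in the shape and fusion of mitochondria, had 12.15 and 12.24 in KO and WT round spermatids, against 11.52 and 11.33 in KO and 11.17 and 11.54 in WT pachytene spermatocytes. It was 1.74-fold higher (log2 0.80, SE 0.14, adjusted p = 0.00275, and 0.071 without the WT round spermatid array). Slc25a34, Slc25a45, Slc25a47, Slc25a48 and Slc25a53 did not pass, with differences between -0.22 for Slc25a45 and 0.17 for Slc25a47.

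Of the 4 X-linked carrier genes, 2 were higher in round spermatids and 0 lower, where 40.2% of all 624 X-linked genes tested were higher and 2.24% lower. Of the 42 autosomal carrier genes, 10 were higher (23.8%, against 17.0% of all autosomal genes) and 12 lower (28.6%, against 17.6%). Slc25a43, an X-linked member of unknown substrate, had 8.75 and 9.22 in KO and WT round spermatids, against 7.93 and 8.26 in KO and 8.30 and 8.11 in WT pachytene spermatocytes. It was 1.78-fold higher (log2 0.83, SE 0.15, adjusted p = 0.00294, and 0.0884 without the WT round spermatid array). The others differed by 0.38 (Slc25a14), -0.12 (Slc25a53) and -0.19 (Slc25a5), which gives a median of 0.13 for the 4 genes. As said above, it is uncertain which locus the Slc25a5 cluster reads, so its place among the X-linked values is uncertain too. Over all X-linked genes the median was 0.20, and over 17214 autosomal genes it was -0.06.

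Rnf8 knockout was compared with wild type first in pachytene spermatocytes, where each genotype has 2 arrays. No carrier gene passed an adjusted p of 0.05, nor did any of the 17925 genes (0%) in limma's fit. At an unadjusted p under 0.05 stood 2 carrier genes (4.35%, against 2.40% of all genes). The KO and WT arrays did not overlap for 15 carrier genes, 9 higher and 6 lower in KO (32.6%, against 25.0% of all genes). Slc25a23, a calcium-regulated ATP-Mg/phosphate carrier, had 8.55 and 8.44 in KO pachytene spermatocytes against 8.04 and 7.99 in WT (difference 0.48, SE 0.15, unadjusted p = 0.0138, adjusted p = 1.0). Its KO values lay above both WT values. Slc25a54 had 8.89 and 8.75 in KO against 9.51 and 9.11 in WT (difference -0.49, SE 0.18, unadjusted p = 0.0286, adjusted p = 1.0), and its KO values lay below both WT values. Among the genes without overlap, the other larger differences were 0.36 for Slc25a11, 0.27 for Slc25a18, 0.25 for Slc25a26 and 0.20 for Slc25a38 in the upward direction, and -0.36 for Slc25a35, -0.16 for Slc25a14, -0.14 for Slc25a44 and -0.05 for Slc25a39 in the downward direction. For Slc25a31 the difference was 0.03, for Slc25a4 0.13 and for Slc25a5 0.14, with overlapping KO and WT arrays for Slc25a31 and Slc25a5. The spread between arrays was unequal: KO array 1 minus KO array 2 ran from -0.83 to 0.91 over the 46 genes, with a median size of 0.20, and WT array 1 minus WT array 2 from -0.36 to 0.40, with a median size of 0.09.

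Round spermatids have 1 array of each genotype, so their comparison has no replicate check, and no p-value is given for it. No carrier gene differed at least 2-fold between KO and WT (0 of 46, against 0.385% of all genes). The largest KO minus WT differences were 0.40 for Slc25a22, 0.36 for Slc25a42, 0.31 for Slc25a23, 0.30 for Slc25a1 and 0.27 for Slc25a45 in the upward direction. In the downward direction they were -0.47 for Slc25a43, -0.45 for Slc25a16, -0.43 for both Slc25a14 and Slc25a40, and -0.32 for Slc25a24. Differences of this size were also found between the 2 KO pachytene arrays. The KO array lay below the WT array for 10 of the 12 carrier genes that were higher in round spermatids, where the same held for 72.3% of the 3191 such genes overall. It lay above for 9 of the 12 that were lower in round spermatids, against 52.8% of the 3064 such genes overall.

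Over both cell types together, 0 carrier genes and 0% of all genes passed an adjusted p of 0.05 for KO against WT, and 3 carrier genes had an unadjusted p under 0.05 (6.52%, against 5.46% of all genes). They were Slc25a23 (difference 0.42, SE 0.10, unadjusted p = 0.0035, adjusted p = 0.555), Slc25a54 (-0.42, SE 0.13, unadjusted p = 0.0149, adjusted p = 0.841) and Slc25a11 (0.30, SE 0.11, unadjusted p = 0.0237, adjusted p = 0.882). For 11 carrier genes (23.9%, against 18.0% of all genes), the KO and WT pachytene arrays did not overlap and the round spermatid arrays differed in the same direction. Of these, 7 were higher and 4 lower in KO. With 1 round spermatid array per genotype, overlap is not possible there and only the sign counts. After Slc25a23 and Slc25a11, the largest rises among these were 0.22 for both Slc25a1 and Slc25a18 and 0.19 for Slc25a38, and the falls after Slc25a54 were -0.31 for Slc25a35, -0.25 for Slc25a14 and -0.10 for Slc25a44. Slc25a23 lies on chromosome 17, as do Rnf8, Slc25a41 and Slc25a27, whose differences were -0.12 and -0.04 (Slc25a41 and Slc25a27). Slc25a23 and Slc25a54, the pair with the largest genotype differences, are the ATP-Mg/phosphate carrier genes that did not pass between cell types.

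Whether the step between cell types differed between the genotypes was tested by the interaction of genotype and cell type. No carrier gene passed an adjusted p of 0.05, nor did any gene (0%), and at an unadjusted p under 0.05 there were 0 carrier genes (against 0.725% of all genes). The interaction estimates of the 46 genes ran from -0.42 to 0.38, with a median of -0.04. Slc25a31 differed between cell types by -0.78 in KO and -0.81 in WT.

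**Figure D5:**
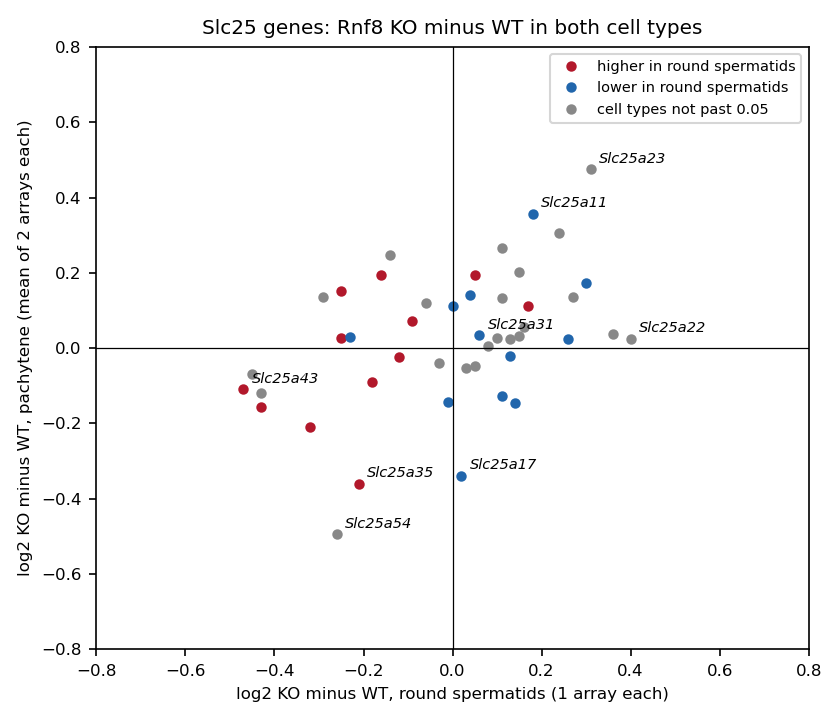
KO minus WT on the log2 scale for the 46 Slc25 genes, in round spermatids (1 array each) on the horizontal axis and in pachytene spermatocytes (means of 2 arrays each) on the vertical axis. Colour gives the test between cell types: all points lie between -0.5 and 0.5 on both axes, with Slc25a23 at the upper right, Slc25a54 at the lower left and Slc25a31 near 0.

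Other genes that serve the carriers or share their membrane were listed for comparison. Carriers are inserted into the inner membrane by the TIM22 machinery. Of 14 tested genes listed for carrier import, Tomm genes as well as Timm genes and Agk, none was higher and 3 were lower in round spermatids. For this list and those below, the shares over all genes were 17.8% higher and 17.1% lower. The lower import genes were Timm8a2, a small chaperone of the intermembrane space (-1.36, adjusted p = 0.000144), Agk, a kinase that is also a TIM22 subunit (-1.32, adjusted p = 0.000206), and Timm22, the pore of TIM22 (-0.54, adjusted p = 0.00417). Of 15 outer membrane channel and phosphotransfer genes, 3 were higher, Ak1 (0.88, adjusted p = 0.00113) for an adenylate kinase, Hk1 (0.56, adjusted p = 0.0159) for a hexokinase and Ckmt2 (0.55, adjusted p = 0.00491) for a mitochondrial creatine kinase. The lower one was Ppif, cyclophilin D of the permeability transition pore (-0.83, adjusted p = 0.00746). Of 16 other transporters of the inner membrane, 2 were higher and 6 lower. Mcu, the pore of the calcium uniporter, was higher (1.55, adjusted p = 0.000191), and so was Sfxn4, a sideroflexin (0.80, adjusted p = 0.00501). Of the partners of Mcu, Micu3 (-1.12, adjusted p = 0.00518) and Smdt1 (-0.75, adjusted p = 0.00103) were lower, and Micu2 did not pass (-0.18, adjusted p = 0.487). The lower genes also included Abcb8, an ATP-driven transporter (-1.47, adjusted p = 0.000291). Of the 4 tested family members with other symbols, Mtch1 was higher (0.33, adjusted p = 0.038) and the rest did not pass. The medians of these lists were -0.16, 0.07, -0.18 and 0.01, beside -0.06 over all genes, and none of their genes passed for KO against WT in pachytene spermatocytes.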

How the data were processed

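Total RNA of enriched germ cells was hybridised to MoGene 1.0 ST arrays. Linear intensity values were deposited, and the submitters' processing notes name Affymetrix Expression Console 1.1 with RMA as the source. The sources used here give neither options nor annotation build. Before testing, log2 of the deposited intensity was taken. Array medians lay between 197 and 218, and precision is limited by the number of arrays.

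Of 35556 clusters, 21789 had 1 gene symbol in the platform annotation, 1621 several and 12146 were not listed. By gene identifier 21698 matched RefSeq (GRCm38.p6), with no symbol updated. Testing covered 17925 genes that reached log2 6 on some array, with limma 3.58.1 in R 4.3.3 (lmFit, eBayes, Benjamini-Hochberg, threshold 0.05). The code was run on simulated data with independent normal noise of equal spread over the arrays of a gene. That simulation cannot show how the fit handles the unequal spread of the real arrays. Round spermatids against pachytene spermatocytes, and KO against WT over both cell types, came from an additive fit with 3 residual degrees of freedom. KO against WT in pachytene spermatocytes and the interaction came from a fit of 4 groups with 2, which takes the spread of the pachytene arrays for the lone round spermatid arrays. Permutation tests enumerated all 15 arrangements of 2 against 4 arrays.

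Named genes were Slc25a31, Slc25a4 and Slc25a5, every carrier gene past the threshold between cell types (array values for the 8 largest each way), the 5 largest genotype differences each way among genes whose arrays did not overlap (in round spermatids, the 5 largest), and up to 4 of each related list, with Micu2 and Smdt1 added after their values were seen. Other genes given with array values, and the adjacent pairs, were chosen after values were seen. Members, lists and roles were chosen with earlier results of these data known. Alternatives were 2 other intensity filters, a second quantile normalization, the mean of a gene's clusters, a trended and robust prior, the replicate number as a block, and leaving out each array.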

Additional observations from a re-analysis of the deposited data

How the results depend on the processing

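The filters, the second normalization, the mean of clusters and the other prior gave 24 or 25 carrier genes between cell types, the same 24 with at most Slc25a38 added. Leaving out 1 array gave 11 to 27 carrier genes and 2786 to 8849 of all genes (6255 with all arrays). The lows came without a round spermatid array: 15 carrier genes (8 higher, 7 lower) and 3577 of all genes without KO, 11 (6 higher, 5 lower) and 2786 without WT. Fewer samples enter those fits, and their spread comes from the pachytene arrays alone. All 24 genes past the threshold kept their direction under every setting run. The filters and the other prior do not change the estimate of a gene. With 1 array left out or with the replicate block, arrays of the cell types that do not overlap fix its sign. The kept direction is therefore no separate check under those settings. Slc25a5, which did not pass, ranged from -0.403 without the WT to 0.019 without the KO round spermatid array. The change of Slc25a31 minus Slc25a4 lay between -0.62 and -0.49, and that of Slc25a31 minus Slc25a5 between -0.78 and -0.43, with 1 array left out.

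Deviations of same-numbered KO and WT pachytene arrays correlated at -0.23 across genes, so the numbers were not taken to pair arrays. With the replicate block, 21 carrier genes passed between cell types (Slc25a12, Slc25a14 and Slc25a28 did not) of 5375 genes in all. For KO against WT in pachytene spermatocytes, where no gene passed (430 at an unadjusted p under 0.05), the replicate block gave 43 genes (10 higher, 33 lower), and a crossed pairing, chosen after seeing the data, gave 88 (18 higher, 70 lower), with 0 carrier genes in each. Leaving out 1 array gave 0 to 2 genes there. Over both cell types, where 0 passed, 3 genes did with the second normalization, 2 with the other prior, 2 with the replicate block, and 0 to 21 with 1 array left out (21 without KO pachytene array 1, 4 without KO pachytene array 2), with 0 carrier genes in each. The interaction gave 0 carrier genes under every setting run. Between KO and WT round spermatids 69 genes differed 2-fold or more, and a limma fit with 4 groups, whose spread comes from the pachytene arrays alone, called 0 and so does not check those 69. Slc25a39 in pachytene spermatocytes turned to 0.003 with the second normalization. The cause of these changes was not tested.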
